A study of Mus musculus with 6 samples.

Results

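Host genes of small nucleolar RNAs (snoRNAs) were examined in N2a cells, a mouse neuroblastoma line, upon reduced levels of NPM1. The 10 genes, *Snhg9*, *Snhg1*, *Snhg3*, *Snhg4*, *Snhg5*, *Snhg6*, *Snhg8*, *Snhg11*, *Snhg12* and *Gas5*, were picked by symbol as the non-coding class to which *Snhg9* belongs, with the level of *Snhg9* in both conditions already known. Of these, 5 had a row among the 26656 genes of the table (*Snhg9*, *Gas5*, *Snhg12*, *Snhg11* and *Snhg3*), and 3 of them (*Snhg9*, *Gas5* and *Snhg12*) were expressed highly enough to enter the 5752 genes that were tested. *Snhg1*, *Snhg4*, *Snhg5*, *Snhg6* and *Snhg8* were not analysed here. The question was whether *Snhg9* was higher upon NPM1 KD alone or together with the other hosts.

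Both groups were wild-type N2a cells harvested 72 h after transfection, at 3 days in vitro. CTR cells received pLKO.1-shCTR (Non Target #3), and NPM1 KD cells received pLKO.1-shNpm1, a single shRNA, so that a gene responding to this hairpin and a gene responding to the loss of NPM1 cannot be told apart. The protocol that all 6 samples carry gives puromycin at 9.3 µg/ml from 24 h onwards for the knockdown experiments. Each group had 3 libraries, which the study's design text calls biological replicates, whereas the treatment protocol speaks of 2. If some of them share a culture, the spread behind the p-values below is in part technical. In the fit over all genes this spread was pooled over genes of similar level. Its SE and p-values therefore do not measure the spread of a gene's own replicates. RNA was converted into PCR-amplified cDNA and read as long Nanopore reads.

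A snoRNA is a short RNA that guides the chemical modification of ribosomal and spliceosomal RNA in the nucleolus and in Cajal bodies. Most vertebrate snoRNAs lie in introns and are released after splicing. H/ACA snoRNAs guide pseudouridylation and C/D snoRNAs guide 2′-O-methylation. The host is either a protein-coding gene, often one for a ribosomal or nucleolar protein, or a long non-coding gene such as *Gas5* and the *Snhg* genes. Many hosts start at a pyrimidine-rich tract as ribosomal protein genes do, and the spliced RNA of several non-coding hosts is translated over short reading frames and removed by nonsense-mediated decay. NPM1 itself is an abundant nucleolar protein.

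The RNAs that *Snhg9* and 2 other measured hosts carry show what kind of guide each gene makes. In the GENCODE M21 annotation of GRCm38, *Snhg9* holds a single snoRNA, *Snora78*, an H/ACA RNA of 128 bases that lies wholly outside its exons (chr17:24719676-24719803, minus strand). *Snhg15* holds 1 as well, the H/ACA RNA *Snora9* (chr11:6528033-6528165, minus strand). *Gas5* holds 9 separate loci, of which *Snord47*, a C/D RNA, is shown (chr1:161038082-161038158, plus strand). The ACA box and the C and D boxes (TGATGA and CTGA) are in capitals.
Snora78: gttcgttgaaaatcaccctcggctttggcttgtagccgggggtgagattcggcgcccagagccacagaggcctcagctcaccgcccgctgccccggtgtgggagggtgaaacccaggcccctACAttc
Snora9: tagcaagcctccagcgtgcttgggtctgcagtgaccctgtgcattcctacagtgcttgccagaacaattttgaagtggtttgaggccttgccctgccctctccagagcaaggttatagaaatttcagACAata
Snord47: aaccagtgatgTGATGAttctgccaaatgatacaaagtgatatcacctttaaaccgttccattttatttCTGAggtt

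The start sites of *Snhg9* and of 3 measured hosts with other values are given to compare their pyrimidine tracts, from 50 bases before to 50 bases after a RefSeq start on GRCm38.p6. Capitals mark a C followed by at least 4 further C or T that begins within 5 bases of the start, which further C or T outside this distance can precede, a feature found in 18.3% of 32851 annotated starts. *Snhg9* (chr17:24719916-24720015, minus strand), *Snhg12* (chr4:132308628-132308727, plus strand) and the downstream of 2 starts of *Gas5* (chr1:161035116-161035215, plus strand) have one, and *Snhg15* (chr11:6528711-6528810, minus strand) has none. The run of *Snhg9* ends before the start, whereas those of *Snhg12* and *Gas5* extend past it. The other start of *Gas5* and the starts of *Zfas1*, *Snhg20* and *Snhg11* have no such run.
Snhg9: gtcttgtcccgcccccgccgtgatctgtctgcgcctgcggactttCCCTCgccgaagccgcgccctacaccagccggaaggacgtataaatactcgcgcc
Snhg12: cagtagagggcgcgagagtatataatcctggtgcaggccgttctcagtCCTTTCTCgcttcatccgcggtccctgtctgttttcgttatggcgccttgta
Gas5: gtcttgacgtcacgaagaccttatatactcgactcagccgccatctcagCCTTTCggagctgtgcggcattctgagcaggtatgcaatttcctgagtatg
Snhg15: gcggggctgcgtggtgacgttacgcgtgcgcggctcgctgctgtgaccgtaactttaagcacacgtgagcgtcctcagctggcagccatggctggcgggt

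In the 300 bases around the start (250 before and 50 after, both strands), *Snhg9* and *Snhg15* held the E-box CACGTG, found in 7.15% of all starts. The windows of *Snhg12*, *Gas5*, *Snhg20*, *Zfas1* and *Snhg11* did not hold it. *Snhg15* and the downstream start of *Gas5* held TGACGTCA, found in 1.79%. TATAAA, found in 13.6%, was present for *Snhg9*, where it lies after the RefSeq start. These are matches of letters and not sites of binding.

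Levels are regularized log (rlog) values on the log2 scale, which the authors deposited rounded to whole numbers wherever they are 1 or more in size. A listed value can therefore stand for any within 0.5 of it, and a difference between 2 group means can be off by up to 1. *Npm1*, the targeted gene, was 10 in all 3 CTR libraries and 8 in all 3 NPM1 KD libraries (difference −2 ± 0.33, SE, adjusted p = 3.23e-06, limma). The libraries of NPM1 KD were shallower, with a relative depth of 0.784 to 0.961 against 1.11 to 1.30 in CTR. The mean rlog value of all tested genes differed by −0.02 between the conditions. The part of the lower depth in the differences below was not tested.

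*Snhg9* (ENSMUSG00000090101) was 5, 5 and 6 in the CTR libraries and 7, 7 and 7 in the NPM1 KD libraries. Every NPM1 KD library was above every CTR library, and the groups do not overlap for any unrounded values these numbers can stand for. The mean went from 5.33 ± 0.58 in CTR to 7 ± 0 in NPM1 KD (SD, n = 3). The difference of 1.67 ± 0.34 (SE) is 3.17-fold on the rlog scale, and rounding allows 0.67 to 2.67, or 1.59-fold to 6.35-fold. By the listed values, 1 of the 5752 tested genes (0.0174%), *Snhg9* itself, had a difference at least this large in the higher direction. Rounding leaves this rank open, since a listed difference of 1, as for *Snhg15*, allows up to 2. More cells with the transcript and more of it per cell cannot be told apart in bulk RNA. These values chose the gene set and are given as a description.

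*Gas5* (ENSMUSG00000053332), the growth-arrest host with the most guides among the measured genes, was 10, 9 and 10 in the CTR libraries and 10 in each NPM1 KD library. The groups overlap, and the difference of 0.33 ± 0.32 (SE) comes from CTR replicate 2, without which it was 0. Rounding allows −0.67 to 1.33. *Snhg12* (ENSMUSG00000086290), which holds 4 snoRNA loci, was 7 in each of the 6 libraries. A listed difference of 0 leaves room for any value from −1 to 1, so that a change of up to 2-fold would not be visible. The ranges of *Snhg9* and *Snhg12* meet between 0.67 and 1.00, and those of *Snhg9* and *Gas5* between 0.67 and 1.33.

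*Snhg11* (ENSMUSG00000044349), a host known for its expression in the nervous system, was 3 in all 6 libraries and lay below the level at which genes were tested. It was picked as a non-coding host, but GENCODE M21 lists it as a protein-coding gene. *Snhg3* (ENSMUSG00000085241), which carries *Snora73a* and *Snora73b*, was listed at 0 in every library, with a mean normalized count of 0. It shares 135 of its 986 exonic bases with *Rcc1* on the same strand and 705 with a non-coding gene on the other strand. *Rcc1*, which encodes the nucleotide exchange factor of RAN, was 5 in all 6 libraries. Whether reads were assigned to *Rcc1* in place of *Snhg3* was not tested.

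**Figure D1:**
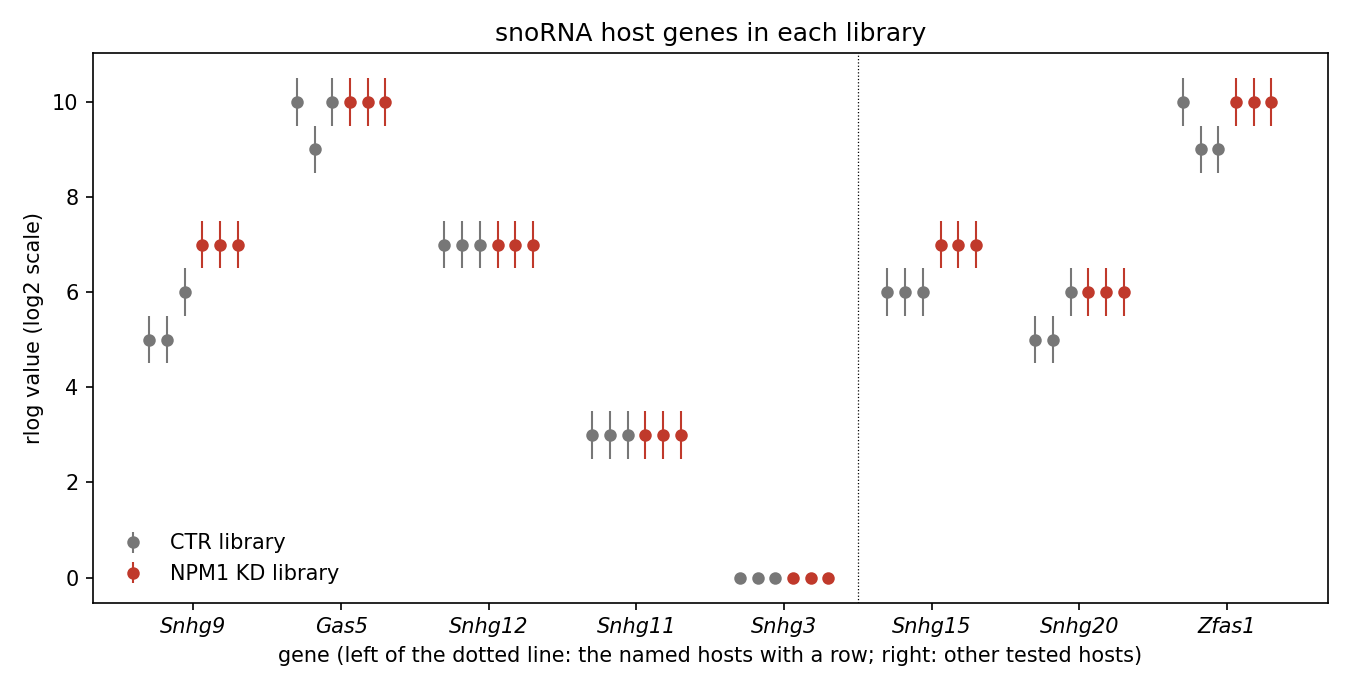
Level of each host gene (x axis) in each library as an rlog value on the log2 scale (y axis). Points are the 3 CTR libraries (grey) and the 3 NPM1 KD libraries (red), and vertical bars span the 0.5 on each side that rounding allows. *Snhg9* lies at 5 to 6 in CTR and at 7 in NPM1 KD, whereas *Snhg12* and *Snhg11* have 1 value in all libraries.

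In the fit over all genes, 0.0695% of the tested genes were called higher at an adjusted p below 0.05 and 0.417% lower, and groups without overlap in the higher direction were found for 2.19%. Of the 3 tested members, *Snhg9* was among those called higher and among those without overlap, and *Gas5* and *Snhg12* were in neither group. *Snhg9* was not among those called without CTR replicate 1, without CTR replicate 2 or without the limit on the variance. Since its values chose the set, its place there is a description and no test of the members. The means were higher in 2 and equal in 1, with a median difference of 0.33. Among all tested genes 24.6% had a higher mean, 48% equal means and 27.4% a lower mean, with a median of 0.

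**Figure D2:**
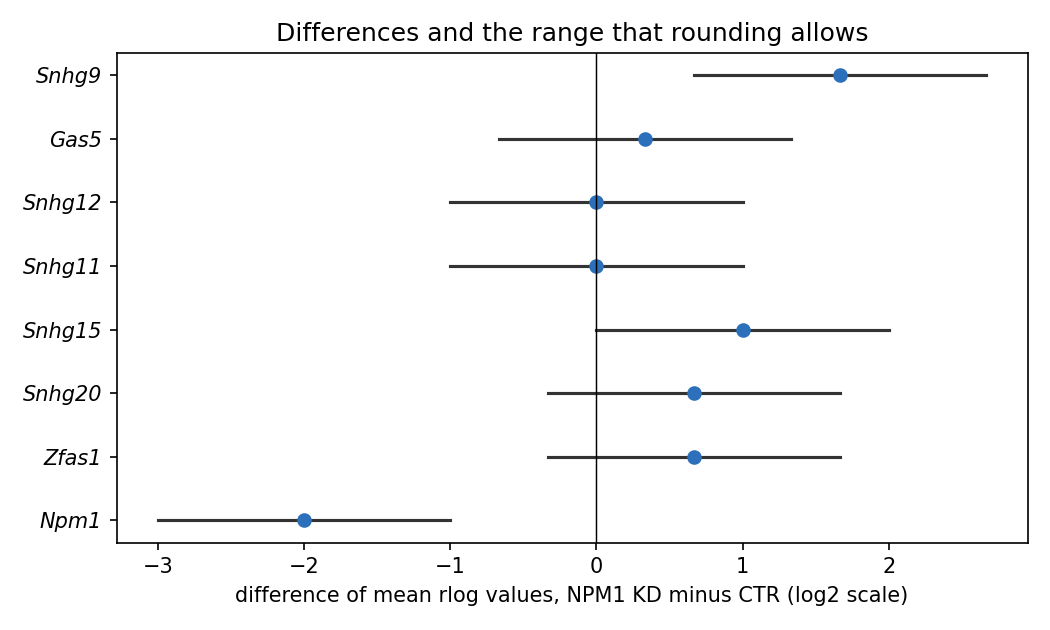
Difference of the mean rlog values, NPM1 KD minus CTR, on the log2 scale (x axis) for host genes and *Npm1* (y axis). Points are the differences and lines the range that rounding allows. The line of *Snhg9* runs from 0.67 to 2.67 and that of *Npm1* from −3 to −1, that of *Snhg15* begins at 0, and the lines of the other hosts include 0.

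To see whether hosts that were not part of the set behaved in the same way, the 6 other non-coding hosts on the list (*Snhg15*, *Snhg16*, *Snhg20*, *Zfas1*, *Dancr* and *Rian*) were read from the same fit. *Dancr* and *Rian* were not analysed here. *Snhg15* (ENSMUSG00000085156) was 6 in all 3 CTR libraries and 7 in all 3 NPM1 KD libraries. The listed groups do not overlap, but rounding allows a difference from 0 to 2, and the difference of 1.00 ± 0.35 (SE) was not called (adjusted p = 0.0791, limma). It was called when only genes averaging log2 of 50 or more were tested (adjusted p = 0.0424, limma) and without the intensity trend (adjusted p = 0.0304, limma). It was also called without the limit on the variance (adjusted p = 3.58e-11, limma). Its listed values have an SD of 0 in both groups, which rounding can produce, so this last p-value has little meaning. Its adjusted p was above the threshold under every other alternative run.

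*Snhg20* was 5, 5 and 6 in the CTR libraries and 6 in each NPM1 KD library. Its difference of 0.67 ± 0.34 (SE) was not called (adjusted p = 0.330, limma). *Zfas1*, a host of 3 C/D snoRNAs, was 10, 9 and 9 in CTR and 10 in each NPM1 KD library, a difference of 0.67 ± 0.33 (SE) that was not called either (adjusted p = 0.330, limma). For *Snhg20* and for *Zfas1*, 1 CTR library reached the NPM1 KD value. *Zfas1* shares 82 of its 2929 exonic bases with *Znfx1* on the opposite strand. *Znfx1* was 2 in each CTR library and 1, 2 and 2 in the NPM1 KD libraries. *Snhg16* had a mean normalized count of 0.736 and was too low to be tested.

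None of the 3 tested hosts outside the set was called in limma, whereas all 3 had an unadjusted p below 0.05, a mark that 14.1% of all tested genes reached. At a difference of 0.67 the level of a gene decides on which side of 0.05 its unadjusted p falls. *Snhg20* had 0.0487, and *Nop10*, with the same steps at a higher level, had 0.0538 (limma). Such counts, here and for the lists below, therefore depend on level and cannot be compared between lists. Their median difference was 0.67. Leaving out *Snhg9*, 4 of the 5 tested non-coding hosts had a higher mean in NPM1 KD, against 24.6% of all tested genes, 1 had equal means and none a lower mean. In 1 of these 5, *Snhg15*, the groups did not overlap, against 2.19% of all tested genes in that direction. *Gas5* and *Snhg12*, 2 of the 5, belong to the set, and the list with the other 3 was also chosen with earlier results of these data known. These counts are therefore a description.

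**Figure D3:**
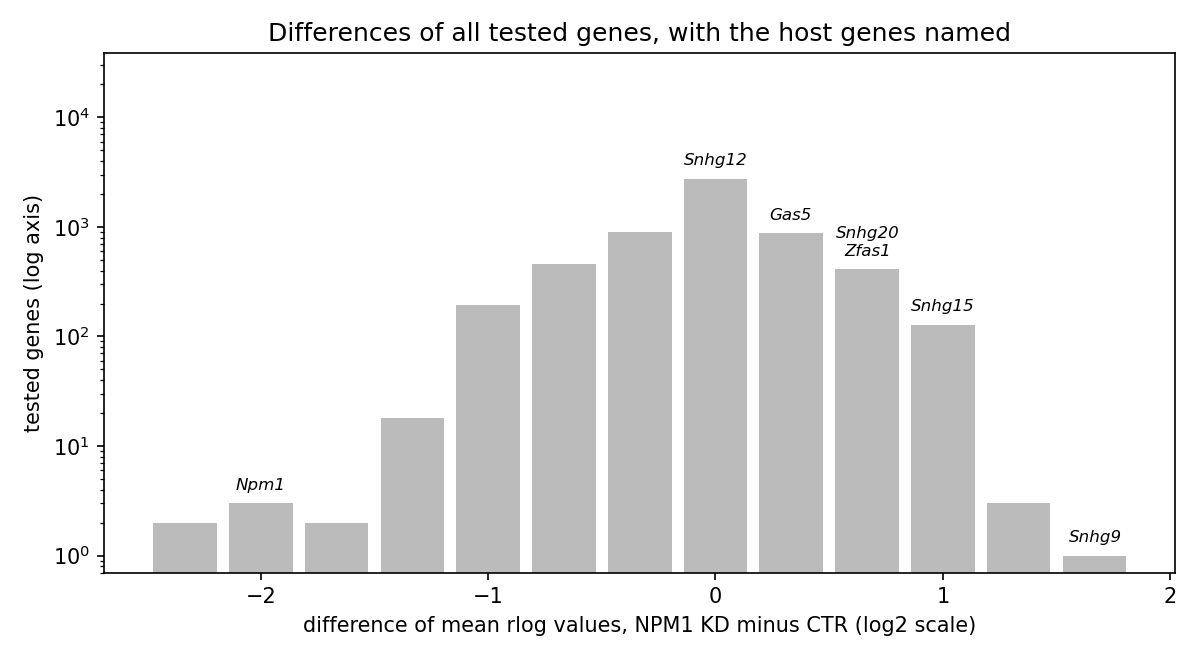
Number of tested genes (y axis, log scale) at each difference of the mean rlog values, NPM1 KD minus CTR (x axis, log2 scale), for 5752 genes. Italic names mark the bar that holds each host gene and *Npm1*. By the listed values *Snhg9* stands alone at 1.67, and the other 5 hosts lie between 0 and 1.00.

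Among the measured hosts, the authors' mean normalized count over all 6 libraries was 884 for *Gas5*, 778 for *Zfas1*, 137 for *Snhg12*, 107 for *Snhg15*, 83.8 for *Snhg9*, 54.3 for *Snhg20* and 8.44 for *Snhg11*. Per kilobase of annotated exon, *Snhg9* was the highest at 458, since its exons add up to only 183 bases. *Zfas1* followed at 266, *Gas5* at 235, *Snhg15* at 78.7, *Snhg12* at 57.0, *Snhg20* at 19.4 and *Snhg11* at 0.990. These means carry no spread over libraries, and a long read can span a whole transcript, so that the order per kilobase depends on the annotated exon length.

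*Snhg9* lies wholly inside the span of *Rps2*, the gene of a protein of the small ribosomal subunit, on the opposite strand. The exons of both genes share 14 of the 183 bases of *Snhg9*. Whether reads were counted by strand is not given in the sources used here, so reads over these bases cannot be told apart. *Rps2* was listed at 9 in each of the 6 libraries. The nearest protein-coding genes on either side also had 1 listed value: *Ndufb10*, a subunit of respiratory complex I 2095 bases away, was 7 in all libraries, and *Rnf151*, a RING finger gene 1468 bases away, was listed at 0 in all of them.

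Rows of the snoRNAs themselves were low or empty. As background, the cDNA kit primes on poly(A) tails, which processed snoRNAs lack. *Snora78* of *Snhg9* had a mean normalized count of 0.213 and an rlog value of −2 in all 6 libraries. All the snoRNAs with a row in *Gas5*, *Snhg12*, *Snhg11*, *Snhg3* and *Snhg15* were listed at 0. Their mean normalized count was 0 too, so this 0 is not a higher level than −2. Higher values were listed inside *Snhg1*, whose 8 snoRNA loci lie within annotated exons of some of its transcripts. Of these, *Gm22744* reached the tested level, with the same 6, 5 and 5 over the replicates of either condition. *Snord22* was 3 in all CTR and 2 in all NPM1 KD libraries at a mean normalized count of 5.75 and was not tested. *Snora24* of *Snhg8* was 1 in every library. These rows cannot stand in for the level of the hosts.

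Protein-coding hosts carry guides of the same kinds in genes for ribosomal proteins, translation factors and nucleolar proteins. All 51 on the list had a row and 48 were tested. In limma none was called in either direction, with 2 at an unadjusted p below 0.05, a mark that 14.1% of all tested genes reached. The mean was higher in 11, equal in 30 and lower in 7, with a median difference of 0. *Rps13*, a protein of the small ribosomal subunit, had the widest difference, with 10 in all CTR and 11 in all NPM1 KD libraries (1.00, adjusted p = 0.0791, limma). It was followed by *Dkc1*, the pseudouridine synthase of H/ACA particles, at 0.67 (adjusted p = 0.396) and by *Rpl10*, a protein of the large subunit, at −0.67 (adjusted p = 0.330).

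The proteins that bind snoRNAs or assemble them into particles were read next. Of 19 genes 16 were tested, none was called in limma, and 2 had an unadjusted p below 0.05, against 14.1% of all tested genes. The mean was higher in 8, equal in 6 and lower in 2, against 24.6%, 48% and 27.4% of all tested genes. The median difference was 0.17, and whether this list differs from all genes was not tested. *Rrp9*, which binds the U3 snoRNA, was 5 in all CTR and 6 in all NPM1 KD libraries (1.00, adjusted p = 0.0791, limma). *Nop10*, a core protein of H/ACA particles, and *Nolc1*, a nucleolar chaperone of these particles, each differed by 0.67 (adjusted p = 0.330 for both, limma), as did *Dkc1*. *Fbl*, the methyltransferase of C/D particles, was 6 in every library.

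Factors of nonsense-mediated decay and of the exon junction complex were included because this pathway removes the spliced RNA of several hosts. Of 16 genes 14 were tested and none was called in limma, with 1 at an unadjusted p below 0.05, against 14.1% of all tested genes. The mean was higher in 8, equal in 6 and lower in none, against 24.6%, 48% and 27.4% of all tested genes. The median difference was 0.33, and whether this list differs from all genes was not tested. The widest difference, 0.67, was shared by *Upf3a*, *Smg1*, *Smg5* and *Rbm8a* (adjusted p = 0.330 for each, limma). *Upf1*, the central helicase of the pathway, was 4 in each CTR library and 5, 4 and 4 in the NPM1 KD libraries.

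Stress transcripts that are sensitive to this decay gave no call among 5 tested of 8 in limma. Of these 1 had an unadjusted p below 0.05, against 14.1% of all tested genes. The mean was higher in 2, equal in 3 and lower in none, against 24.6%, 48% and 27.4% of all tested genes. *Ppp1r15a*, which encodes a regulatory subunit of the phosphatase that acts on eIF2α, was 3 in all CTR and 4 in all NPM1 KD libraries (1.00, adjusted p = 0.166, limma). *Atf3* differed by 0.33 (adjusted p = 0.713). *Atf4*, *Trib3* and *Chac1* had 1 value each in all libraries. Long non-coding RNAs that host no snoRNA had 6 of 11 genes with a row and 4 tested. None was called in limma, with 1 at an unadjusted p below 0.05, against the same 14.1%. The mean was higher in 1, equal in 1 and lower in 2. *Tug1* differed by 0.67 (adjusted p = 0.330), *Malat1* and *Neat1* by −0.33 (adjusted p = 0.713 for both), and the median was −0.17 against 0.67 in the 3 tested hosts outside the set. The difference between these lists was not tested.

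**Figure D4:**
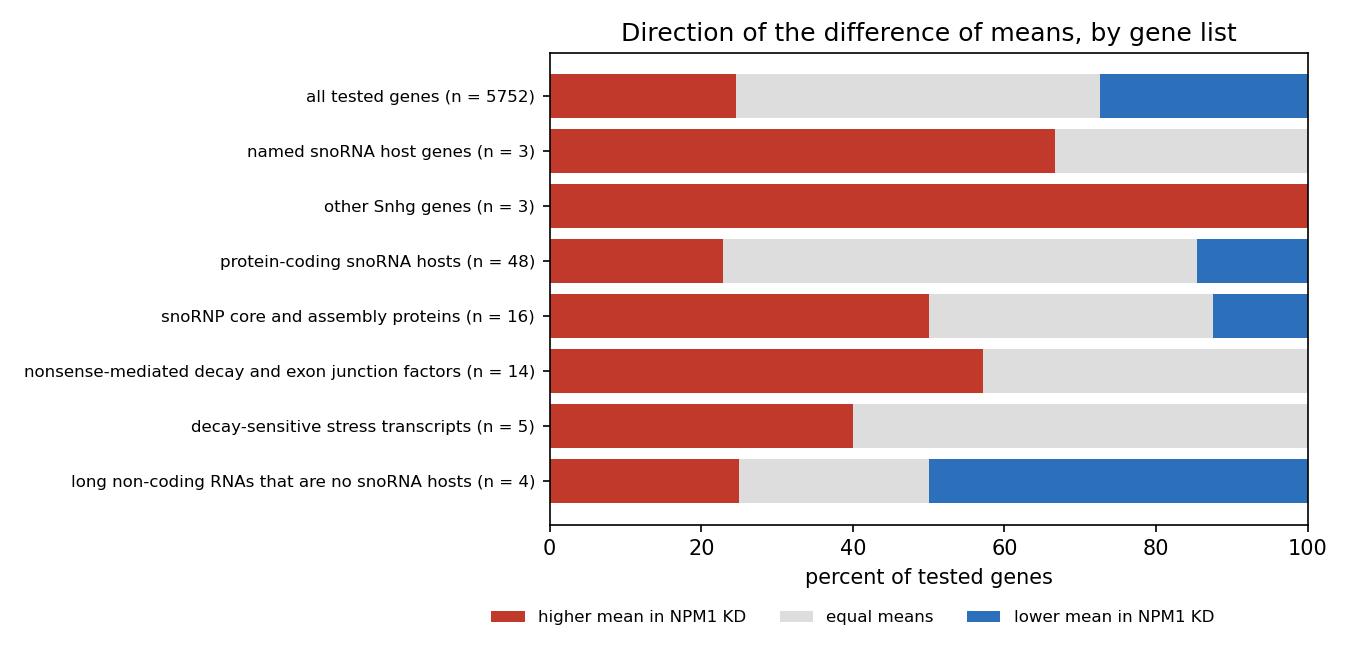
Share of tested genes (x axis, percent) with a higher, equal or lower mean rlog value in NPM1 KD, for all tested genes and for each gene list (y axis, with the number tested). The protein-coding hosts show 11 higher, 30 equal and 7 lower of 48, while the 3 tested hosts outside the set were all higher.

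The tested genes whose values over the 6 libraries were most like those of *Snhg9*, after subtraction of the mean of each gene, all had the same pattern of one value in CTR and a value higher by 1 in NPM1 KD, at a Euclidean distance of 1.15. This pattern was shared by 123 genes. In 23 of them, *Snhg15* included, the level was also nearest to that of *Snhg9*, with 6 in CTR and 7 in NPM1 KD. In alphabetical order the first 5 were *Cdk11b*, *Dpy30*, *Eif6*, *Fanci* and *Ghitm*, and rounding does not allow a finer order. The values that chose *Snhg9* are those compared, so the likeness is a description.

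Markers of N2a cells were checked beside these results. None of the 12 neuroblastoma and neuronal markers was at 0 in every library. This is a low bar, since such a row has a mean normalized count of 0, as for *Ptprc*. *Phox2a*, *Gata3*, *Dbh* and *Th* lay below the tested level. *Phox2a*, *Dbh* and *Th* did not exceed 2, the highest value of *Pecam1*, a marker of another cell type. Of the 8 tested, *Chga* (difference −1.33, adjusted p = 0.0260, limma) and *Chgb* (−1.67, adjusted p = 0.00110, limma), which encode proteins of secretory granules, fell upon NPM1 KD. *Isl1*, *Tubb3* and *Stmn2* each differed by −1 (adjusted p = 0.0791, limma). The sum of the rlog values over the 12 markers was 60.3 to 62.4 in CTR and 53.4 to 56.5 in NPM1 KD. Of 6 markers of other cell types none reached the tested level, *Ptprc* and *Gfap* were at 0, and the highest rlog value was 2. The part of this marker shift in the level of *Snhg9* was not tested.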

How the data were processed

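Libraries of N2a cells (3 CTR and 3 NPM1 KD) were grouped by their labels. The authors deposited a score per gene and library, the rlog value on the log2 scale, normalized for library size, and a table of their own comparison with fold changes, errors, test statistics and p-values, which were not used, and the mean normalized count over all libraries (other unit), which was. The submitters' processing notes name minimap2, featureCounts, DESeq2 and GRCm39, without versions. The annotation, the counting options and the total reads are not given in the sources used here. Each of the 75364 values of 1 or more in size is whole. The 257 rows that repeat a gene identifier under another symbol were left out. Relative depth was read from the mean normalized counts of genes with 1 read.

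The conditions were compared by a two-sided test in limma (version 3.58.1, R 4.3.3), using lmFit and eBayes with the trend option, for the 5752 genes whose rlog values averaged log2 of 10 or more. P-values were adjusted by Benjamini-Hochberg over these genes, with a threshold of 0.05 and a variance within groups of at least 0.0833, the variance that rounding adds. In this fit genes of the same mean level had the same SE, whatever the spread of their own libraries. Host structure and sequences came from GENCODE M21 and RefSeq on GRCm38, and levels were not placed by coordinate. The hosts and the lists were chosen with earlier results of these data known. Named were the host set, *Npm1* and the genes called in each list or otherwise those with the widest difference (ties included). The neighbours of *Snhg9*, the overlapping genes *Rps2* and *Rcc1* and the 5 genes most like *Snhg9* were named too. Not every gene that overlaps a host was named. Further genes, among them *Fbl*, *Upf1*, *Atf4*, *Trib3*, *Chac1*, *Znfx1* and the marker genes, were named after their values were seen. Alternatives were each library left out, centring, a replicate block, filters and variance settings, and, chosen after seeing the data, keeping the repeat rows. One marker gene is not reported here.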

Additional observations from a re-analysis of the deposited data

How the results depend on the processing

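The difference of *Snhg9* was 1.5 to 2 when 1 library was left out. It was not called without CTR replicate 1 or without CTR replicate 2. Leaving out a library cannot make separate groups overlap, so the lack of overlap was bound to stay. With 1 library left out, 0 to 2 genes were called higher (4 with all libraries) and 5 to 9 lower (24 with all libraries), and 1 to 2 members had a higher mean, with 1 when CTR replicate 2 was left out. No gene of the 6 related lists was called with any library left out.

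Over all genes, no filter on low values gave 1 higher and 10 lower, a mean of at least log2 of 50 gave 53 and 76, no limit on the variance gave 123 and 178, and no intensity trend gave 132 and 218. *Snhg15* (difference 1.00) was called under the last 3 of these (adjusted p = 0.0424, 3.58e-11 and 0.0304, limma), which made 1 call among the hosts outside the set, and 1 among protein-coding hosts was called higher there too. Without the variance limit and without the trend, 1 snoRNP protein and 1 stress transcript were also called higher. Without the limit, rounded values that are equal within each group have no spread, so the p-values and counts of that run rest on the rounding. Centring and keeping the repeat rows moved no count by more than 1.5 times.

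Same-numbered libraries did not deviate together (correlations 0.0089, 0.0013 and 0.0298). On rounded values of 3 libraries per group, this cannot tell whether same-numbered libraries shared a passage or transfection. With the replicate block 1 gene was called higher and 7 lower. Total reads are unknown, and rounding limits what any library shows.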

Other observations

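Among the neighbours of the hosts that were not analysed here, *Slc3a2*, which encodes the heavy chain of amino acid transporters and lies 106 bases from *Snhg1* on the opposite strand, was 8 in all 3 CTR libraries and 7 in all 3 NPM1 KD libraries. *Wdr74*, a ribosome assembly gene on the other side of *Snhg1*, was 4, 4 and 5 in CTR and 5 in each NPM1 KD library. Both were noticed after their values were seen.

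Of 1558 annotated snoRNA and scaRNA genes 1033 had a row, 959 of these were at 0 in every library and 11 had a mean normalized count above 1. Besides *Gm22744*, *Snord104* reached the tested level and was 6 in each library other than NPM1 KD replicate 2, where it was 7.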
